A study of Macaca fascicularis with 4 samples.

Results

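Among 10639 cell barcodes of the cynomolgus monkey embryo library of embryonic day 24 (E24), 135 carried at least 1 transcript molecule each of T and SOX2 and none of TBX6 or SHH, a share of 1.27% (exact binomial 95% interval 1.06% to 1.5%). These double-positive barcodes, chosen by the paired detection that marks neuromesodermal progenitors, were set against the other 10504 barcodes of the same library. The series holds 27626 barcodes in 4 droplet libraries, from Carnegie stage 11 at E24 to stage 18 at E37, with 1 library at each age. Transcripts were counted at their 3′ ends by unique molecular identifiers (UMIs), so that each UMI stands for 1 captured molecule. No treatment and no genetic change is named for any sample. Before dissociation with trypsin and EDTA, the E24 embryos were trimmed of yolk sac, amnion, heart and more anterior tissue, and the caudal growth zone with the primitive streak was cut away, so the caudal end where these progenitors reside was meant to be absent. More than 1 embryo entered the E24 library according to its label, and its barcodes carry no mark of which embryo they came from. With 1 library and no replicate, no test between groups was possible. The intervals given below cover counting error only, and differences of 2-fold or more are named by size.

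Neuromesodermal progenitors sit at the tail end of the elongating embryo and supply both the spinal cord and the paraxial mesoderm that forms somites, as lineage studies in mouse and chick have shown. They are recognised by joint expression of T (Brachyury), a mesodermal T-box factor, and SOX2, a neural SOX factor, and in the mouse are kept in their state by WNT3A and FGF8. The CDX homeobox factors relay these signals to the posterior HOX genes. TBX6 drives progenitors into presomitic mesoderm and in the mouse lowers Sox2, while SHH together with T marks the notochord, and the rule leaves out barcodes with either gene.

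T and SOX2 levels were set by the rule and are given only as description. T ran from 1 to 7 UMIs per double-positive barcode with a median of 1, and 89 of the 135 barcodes had a single T UMI. SOX2 ran from 1 to 20 UMIs with a median of 3, and 37 barcodes had a single SOX2 UMI. SOX2 was above T in 89 barcodes, T was above SOX2 in 21, and the counts were equal in 25. At the edge of the rule, 18 barcodes had 1 UMI of each gene. Just outside it, 38 further barcodes held T and SOX2 together with TBX6 or SHH, 36 of them with TBX6, 3 with SHH and 1 with both. The double-positive barcodes were deeper, with a median of 12480 UMIs against 9967.5 UMIs in the other barcodes. They summed to 1937354 UMIs, against 113395309 UMIs in the others. Levels below are UMIs summed over a group per 1000000 UMIs of that group (CPM).

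T was found mostly in the youngest library. At E24, 558 barcodes held T and 2582 held SOX2. T was found in 14 barcodes at E28, 8 at E31 and 4 at E37, and the rule picked 1 barcode at E28 and 0 at E31 and E37, where a count of 0 allows shares of up to 0.0450% and 0.0566%. The later dissections took the urogenital region and left out the hindlimb level and beyond, so stage and tissue cannot be told apart. Barcode sequences are drawn from a common pool: 74, 111 and 71 of the E24 sequences also occurred at E28, E31 and E37, of which 1, 0 and 4 were double-positive at E24.

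The label was checked by clustering all E24 barcodes with T, SOX2, TBX6 and SHH left out of the clustering genes. Of 29 clusters, 13 held double-positive barcodes, and 78 of the 135, or 57.8%, fell into a single cluster of 537 barcodes, cluster 14. It is called neuromesodermal-like because all 9 listed markers were high in it, but T and SOX2 among them are genes of the rule, and so only the other 7 (NKX1-2, CDX1, CDX2, CDX4, WNT3A, FGF17 and SP5) bear on the label. Of these, CDX1, WNT3A and FGF17 do not set it apart from the presomitic-mesoderm-like cluster 18. They had 95.3, 29.5 and 347 CPM in cluster 14 and 116, 34.2 and 377 CPM in cluster 18. CDX2 and CDX4 were higher in cluster 14, with 552 and 382 CPM against 168 and 102 CPM. Beside SOX2, the leading genes of cluster 14 were FGF17, HES7, CDX4, CYP26A1, HOXA10, HOXC10, CDX2, PPP1R14C and KISS1. A further 20 double-positive barcodes lay in a gut-endoderm-like cluster, 16 in a pair of neural-tube-like clusters, and 21 were spread over 9 others. The largest of those 9 held 7 of them, was led by NKX2-8, HCRT, SOX2 and FOXA2, and was left unnamed. No double-positive barcode lay in the presomitic-mesoderm-like cluster, where T was found in 40.8% and TBX6 in 77.5% of barcodes, or in the notochord-like cluster, where T was found in 89.4% and SOX2 in 2.13%. Since the rule removes barcodes with TBX6 or SHH, this says nothing about the label: 9 barcodes of the presomitic-mesoderm-like and 1 of the notochord-like cluster held T and SOX2. The remaining 57 double-positive barcodes lay in clusters with other leading genes.

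**Figure D1:**
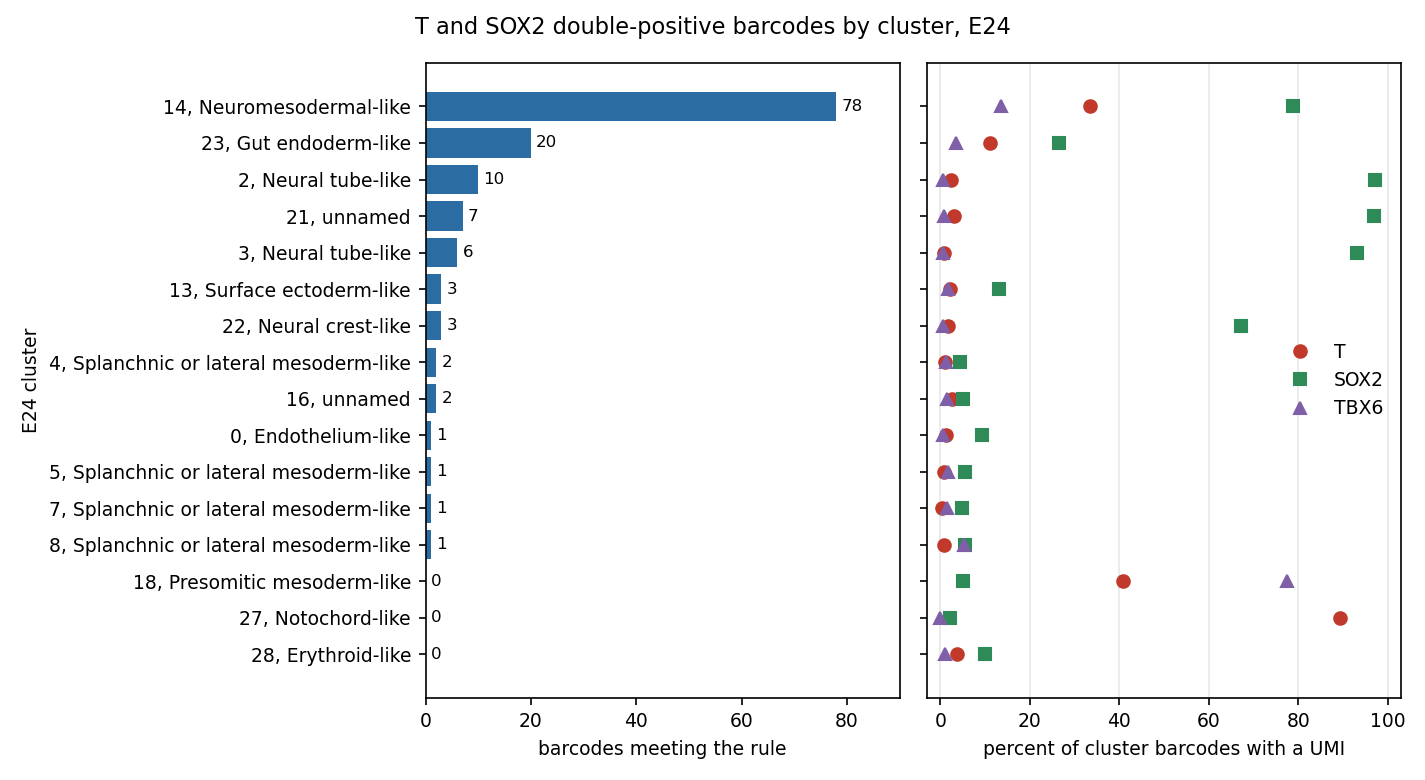
Left, the number of T and SOX2 double-positive barcodes in each E24 cluster, with 78 in cluster 14 and 20 in cluster 23. Right, the percent of all barcodes of the same cluster with a UMI of T (circles), SOX2 (squares) or TBX6 (triangles): cluster 14 combines T and SOX2, cluster 18 T and TBX6, and the neural-tube-like clusters hold SOX2 with almost no T.

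Free RNA in droplets can set a floor under such detection. In the endothelium-like cluster, which should lack both genes, T was found in 1.32% of barcodes (0.361% to 3.35%) and SOX2 in 9.24%, at a median of 9849 UMIs. In the neural-tube-like clusters 2 and 3, T was found in 2.26% (1.14% to 4.01%) and 0.824% (0.303% to 1.79%), at medians of 9852.5 and 8502.5 UMIs. Both intervals overlapped that of the endothelium-like cluster, and whether T in these clusters was background was not tested. In cluster 14 T was found in 33.3% (29.4% to 37.5%), and in the gut-endoderm-like cluster in 11.01% (8.23% to 14.3%). With every barcode thinned to 3500 UMIs these shares were 17.7% in cluster 14 and 4.13% in the gut-endoderm-like cluster, 0.617% and 0.412% in neural-tube-like clusters 2 and 3, and 0.330% in the endothelium-like cluster. A rule that joins a pair of markers can also pick droplets with more than 1 cell. Removing barcodes by doublet score at an expected rate of 0.8% per 1000 barcodes, 18 double-positive barcodes (13.3%) would be lost, against 888 of the others (8.45%). That share was 6.41% of the 78 in cluster 14, 20% of the 20 in the gut-endoderm-like cluster, 6.25% of the 16 in neural-tube-like clusters and 38.1% of the 21 elsewhere. Among barcodes of the same clusters that the rule did not pick, it was 4.36% in cluster 14, 21.9% in the gut-endoderm-like cluster and 2.34% in the neural-tube-like clusters. In the whole endothelium-like cluster it was 29.0%. How far detection in the endothelium-like cluster reflects free RNA or droplets with more than 1 cell was not tested.

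The CDX genes were all higher in double-positive barcodes. CDX2 had 466 CPM (436 to 498) in double-positive barcodes and 75.5 CPM (73.9 to 77.1) in the others, 6.17-fold higher (5.76 to 6.61). CDX4 had 312 CPM (288 to 338) against 41.3 CPM (40.1 to 42.5), 7.56-fold higher (6.94 to 8.23). CDX1, which in the mouse is also a direct WNT target, had 70.7 CPM (59.4 to 83.6) against 27.9 CPM (26.9 to 28.8), 2.54-fold higher (2.12 to 3.01). The interval of the CDX1 ratio lay below those of CDX2 and CDX4. As a background for these calls, 9983 genes had a mean level of at least 5 CPM over both groups, and 309 of them, or 3.1%, were 2-fold or more higher in double-positive barcodes, while 415, or 4.16%, were 2-fold or more lower. The median log2 ratio of all measured genes was 0.04.

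Barcode by barcode, CDX2 was found in 113 of the 135 double-positive barcodes (83.7%), against 27.1% of the others and 8.58% of the endothelium-like cluster. CDX4 was found in 98 (72.6%), against 17.1% of the others and 5.28% of the endothelium-like cluster. CDX1 was found in 66 (48.9%), against 17.1% and 3.30%. After thinning to 3500 UMIs, the shares were 66.7% against 16.0% for CDX2, 51.9% against 9.23% for CDX4 and 21.5% against 8.04% for CDX1, so the order held at equal depth. The genes were found together: 121 double-positive barcodes (89.6%, 83.2% to 94.2%) held at least 1 CDX gene, against 41.7% of the others, and 96 (71.1%) held CDX2 and CDX4 jointly, against 11.9%. Per barcode CDX2 had a median of 6 UMIs and a maximum of 37, and CDX4 a median of 3 UMIs and a maximum of 19, while 14 double-positive barcodes had no CDX UMI.

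WNT3A, the ligand that maintains the progenitor pool in the mouse, was low in absolute count but higher in the group. It had 40 UMIs, 20.6 CPM (14.8 to 28.1) in double-positive barcodes, against 4.09 CPM (3.73 to 4.48) in the others, 5.05-fold higher (3.56 to 6.98). It was found in 24 double-positive barcodes (17.8%, 11.7% to 25.3%), against 2.82% of the others and 0.660% of the endothelium-like cluster, and all 24 also held a CDX gene. T itself chose the barcodes, so WNT3A by the number of T UMIs is given as description only. Of the 46 double-positive barcodes with 2 or more T UMIs, 41.3% held WNT3A, at 42.7 CPM (29.0 to 60.6), against 5.62% at 7.43 CPM (3.40 to 14.1) of the 89 with a single T UMI. After thinning, these shares were 13.04% and 1.12%. The barcodes with 2 or more T UMIs were deeper, with a median of 14672.5 UMIs against 11913 UMIs, and all 16 barcodes of the neural-tube-like clusters had 1. CDX2 differed less between the same groups, with 579 CPM at 2 or more T UMIs and 399 CPM at 1, and CDX4 had 402 CPM and 258 CPM. PAX6, a neural tube factor, ran the other way, with 9.65 CPM at 2 or more T UMIs and 63.5 CPM at 1.

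Groups just outside the rule place these values. Among these groups, CDX2 and CDX4 were highest in barcodes that held T and SOX2. CDX2 had 466 CPM in double-positive barcodes and 278 CPM in the 160 barcodes with T but no SOX2, TBX6 or SHH. It had 208 CPM in the 581 barcodes with TBX6, and 117 CPM in the 2326 barcodes with SOX2 but no T, TBX6 or SHH. CDX4 followed the same order, with 312, 164, 147 and 67.4 CPM in those groups, and the intervals of T-only and TBX6 barcodes overlapped (146 to 185 against 138 to 157). WNT3A did not follow it. It had 20.6 CPM in double-positive barcodes, 39.3 CPM (30.5 to 49.7) in T-only barcodes, 33.1 CPM (28.9 to 37.8) in TBX6 barcodes and 5.39 CPM (4.52 to 6.38) in SOX2-only barcodes. In the 38 barcodes left out of the rule for their TBX6 or SHH, WNT3A had 60.4 CPM (41.3 to 85.3) and CDX2 had 483 CPM (426 to 546). Among T-only barcodes all 36 UMIs of POU5F1, a pluripotency and germ cell factor, came from 1 barcode, and the erythroid globin HBZ stood at 6154 CPM. TBX6 barcodes include 36 with T and SOX2. Cluster 14 as a whole had more CDX2 and CDX4 than the double-positive barcodes, with 552 and 382 CPM.

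**Figure D2:**
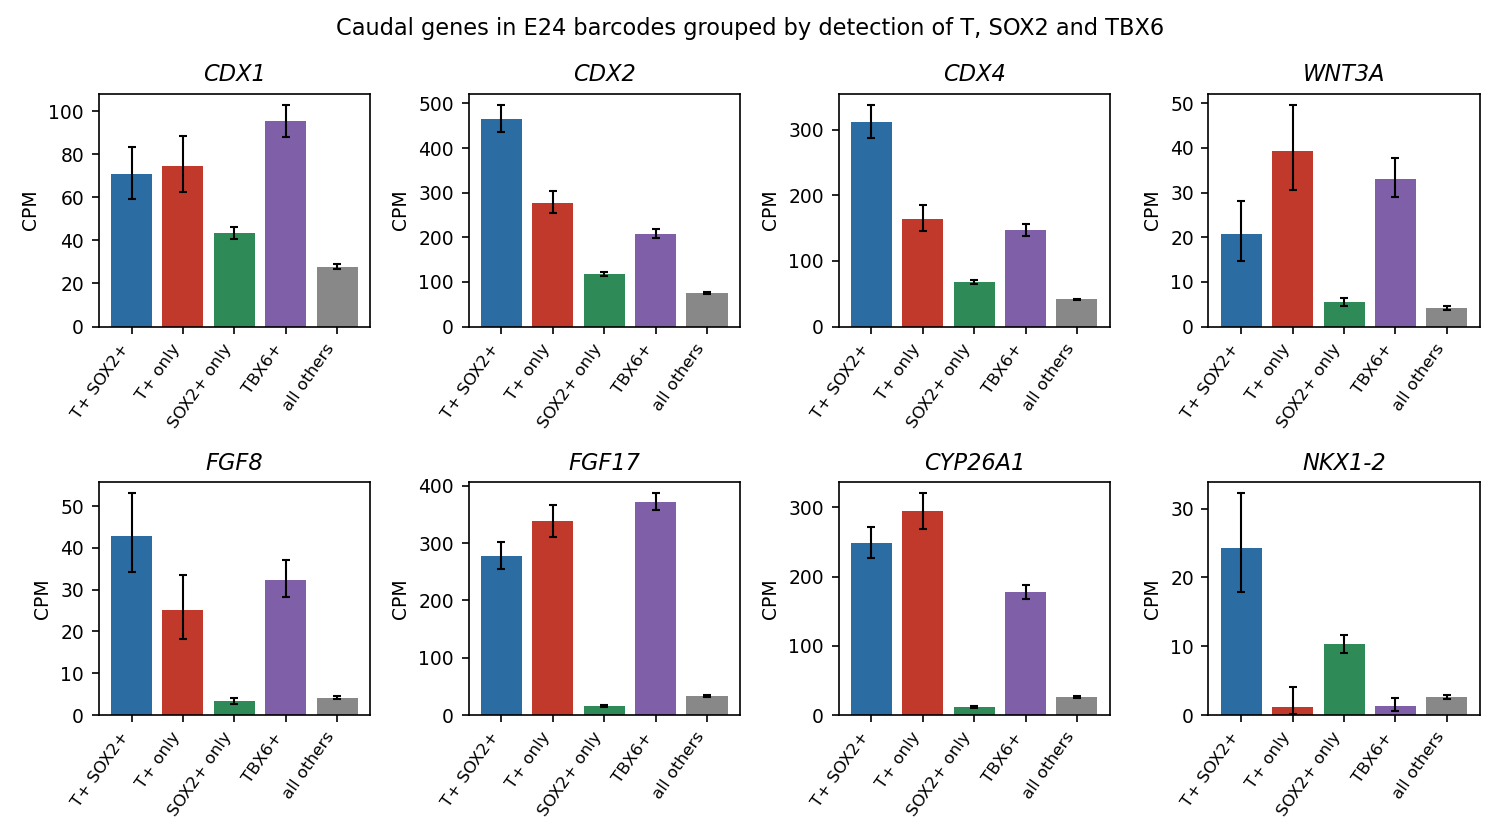
Levels (CPM of summed UMIs, linear axes from 0) of CDX1, CDX2, CDX4, WNT3A, FGF8, FGF17, CYP26A1 and NKX1-2 in 5 E24 barcode groups, from T and SOX2 double-positive at the left to all others at the right; error bars are exact Poisson 95% intervals. Of these 5 groups, double-positive barcodes have the highest CDX2, CDX4 and NKX1-2. WNT3A and FGF17 are as high or higher in T-only and TBX6 barcodes. CYP26A1 is also higher in T-only barcodes (294 CPM).

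NKX1-2, a homeobox gene of the caudal epiblast and preneural tube in mouse and chick, was higher in the summed group than in T-only and TBX6 barcodes. T-only barcodes lack SOX2 by definition, and the 47 UMIs of NKX1-2 in double-positive barcodes were unevenly spread over subgroups, as given below. NKX1-2 had 24.3 CPM (17.8 to 32.3) in double-positive barcodes, 1.14 CPM in T-only, 1.34 CPM in TBX6 and 10.3 CPM (9.05 to 11.6) in SOX2-only barcodes, and 2.57 CPM in all others. HES3, a HES family repressor, had 19.6 CPM in double-positive barcodes, 1.14 CPM in T-only, 1.78 CPM in TBX6 and 19.3 CPM in SOX2-only barcodes. Over the whole list of neuromesodermal and caudal genes, 18 of 22 were measured, 14 were 2-fold or more higher, 1 was lower, and the median log2 ratio was 2.02 against 0.04 for all measured genes. Higher members included the homeobox gene EVX1 (32.0 against 5.79 CPM), the zinc finger factor SP8 (96.0 against 21.7 CPM), the WNT target SP5 (47.0 against 13.8 CPM) and the caudal TGF-beta ligand GDF11 (36.6 against 15.02 CPM). LIN28A (401 against 191 CPM), an inhibitor of let-7 microRNA maturation, and SALL4 (49.6 against 18.9 CPM), a stem cell zinc finger factor, were also higher. FST, an inhibitor of activin and BMP signals, was the lower one, with 25.3 CPM against 112 CPM. In T-only barcodes EVX1 had 29.6 CPM, SP8 56.3 CPM, SP5 40.4 CPM and GDF11 29.0 CPM. LIN28A had 262 CPM and SALL4 27.3 CPM in T-only barcodes.

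WNT ligands were unevenly represented. Of 19, only 5 were measured, of which WNT3A, WNT5A and WNT5B were higher and WNT2 lower, with a median log2 ratio of 1.81. WNT5B had 82.6 CPM (70.3 to 96.4) in double-positive barcodes and 12.8 CPM in the others, 6.46-fold higher (5.45 to 7.61), and WNT5A 80.5 CPM (68.4 to 94.2) against 23.0 CPM, 3.50-fold higher (2.96 to 4.11). Both act mainly through the non-canonical branch that guides cell movement. WNT2 had 4.65 CPM in double-positive barcodes against 14.04 CPM in the others. In T-only barcodes WNT5B had 84.2 CPM and WNT5A 78.5 CPM, level with double-positive barcodes. Among receptors, modulators and targets 22 of 33 were measured, of which the receptor FZD10 and SP5 were higher, FZD4, the agonist RSPO3 and the inhibitor SFRP1 were lower, and the median log2 ratio was -0.22. AXIN2, a feedback target of canonical WNT signalling, had 32.0 CPM (24.5 to 41.0) against 16.7 CPM, 1.92-fold higher (1.46 to 2.47), short of 2-fold, and the nuclear effector LEF1 had 55.2 CPM against 72.1 CPM.

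Among FGF ligands, receptors and targets, of 23 17 were measured, 8 were higher, 2 were lower, and the median log2 ratio was 0.83. FGF8, the caudal ligand, had 42.8 CPM (34.1 to 53.1) in double-positive barcodes and 4.17 CPM in the others, 10.3-fold higher (8.03 to 12.99). FGF17, a ligand of the same subfamily, had 278 CPM (255 to 303) against 33.2 CPM, 8.37-fold higher (7.64 to 9.17), and was found in 87 double-positive barcodes (64.4%) against 7.16% of the others and 1.65% of the endothelium-like cluster. FGF3 had 27.4 CPM against 8.03 CPM. Of the feedback inhibitors and targets of the pathway, 5 were higher: SPRY4 had 55.2 against 9.25 CPM, SPRY2 83.6 against 31.3 CPM, SPRY1 50.6 against 18.03 CPM, IL17RD 132 against 33.9 CPM, and the ETS factor ETV4 32.5 against 12.3 CPM. DUSP6 (292 against 164 CPM), SPRED1 (37.2 against 31.3 CPM) and SPRED2 (25.3 against 16.4 CPM) were below 2-fold, and ETV1 and ETV5 were not measured. FGF18 (1.03 against 9.62 CPM) and the receptor FGFR2 (12.4 against 28.7 CPM) were lower, while FGFR1 had 122 CPM against 80.2 CPM.

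Retinoic acid genes differed in both directions. CYP26A1, which degrades retinoic acid and shields the tail bud from it, had 249 CPM (227 to 272) in double-positive barcodes and 26.1 CPM in the others, 9.55-fold higher (8.66 to 10.5). In T-only barcodes CYP26A1 had 294 CPM, and the ratio of double-positive to T-only barcodes was 0.846 (0.746 to 0.959). The receptor RARG had 33.0 CPM in double-positive barcodes against 10.4 CPM in the others. On the synthesis side, ALDH1A2, the enzyme that makes retinoic acid in somites, had 2.06 CPM (0.563 to 5.29) against 20.3 CPM, 9.85-fold lower (3.84 to 36.2), and RDH10, which makes its precursor, had 7.23 CPM against 16.6 CPM. The binding protein CRABP1 had 10.8 CPM against 37.3 CPM. In all, 2 of the 11 measured genes of 17 were higher and 3 lower.

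HOX genes, which set position along the body axis, were higher, most of all in paralogue groups 7, 10 and 11. Of 39, 31 were measured, 19 were 2-fold or more higher, 0 were lower, and the median log2 ratio was 1.20. Summed over paralogues, group 10 had 401 CPM in double-positive barcodes and 57.4 CPM in the others, 6.99-fold higher (6.48 to 7.53), group 11 37.7 CPM against 6.92 CPM, 5.44-fold higher (4.22 to 6.92), and group 7 854 CPM against 168 CPM, 5.07-fold higher (4.82 to 5.33). Groups 2 and 5 were only 1.45-fold and 1.37-fold higher, and group 1 2.41-fold. Group 13, the most caudal, had 7 UMIs in all and a ratio of 2.03 with an interval of 0.805 to 4.26, so no difference was detectable at this depth. Single genes with the clearest ratios were HOXC10 (100 against 10.3 CPM, 9.69-fold, 8.28 to 11.3), HOXD10 (50.1 against 6.53 CPM, 7.66-fold, 6.14 to 9.48), HOXA10 (251 against 40.5 CPM, 6.19-fold, 5.63 to 6.80) and HOXA7 (773 against 127 CPM, 6.10-fold, 5.78 to 6.43). In T-only barcodes group 7 had 535 CPM and group 10 275 CPM, while group 11, at 38.1 CPM, was level with double-positive barcodes.

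The genomic clusters were not alike. Among measured genes, 7 of 9 in HOXA, 5 of 6 in HOXC and 6 of 7 in HOXD were 2-fold or more higher, but in HOXB only 1 of 9, HOXB9, with 282 CPM against 102 CPM. The median log2 ratio was 1.40 in HOXA, 1.96 in HOXC, 1.27 in HOXD and 0.54 in HOXB. HOXB6 and HOXB8 had log2 ratios of 0.11 and 0.25, beside 2.27 for HOXC6 and 2.07 for HOXC8, and HOXB5 had 17.6 CPM against 33.6 CPM, a log2 ratio of -0.94. Compared with the presomitic-mesoderm-like cluster, group 7 had 854 CPM in double-positive barcodes and 261 CPM there, and group 10 401 CPM and 152 CPM. Neural-tube-like clusters without their double-positive barcodes had 3.92 CPM of group 10.

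**Figure D3:**
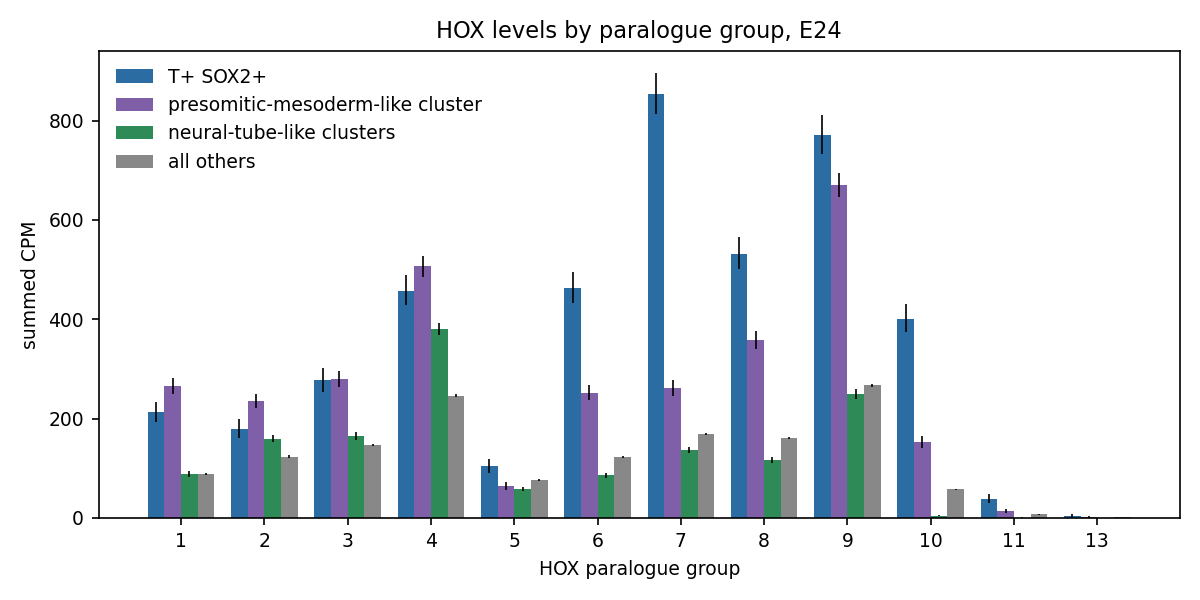
Summed CPM of HOX paralogue groups 1 to 13 in E24 double-positive barcodes, the presomitic-mesoderm-like cluster, the neural-tube-like clusters without double-positive barcodes, and all other barcodes; thin lines on the bars are exact Poisson 95% intervals, and group 12 is not drawn because it had 0 UMIs. Groups 5 to 11 stand highest in double-positive barcodes, groups 1, 2 and 4 are higher in the presomitic-mesoderm-like cluster, with overlapping intervals for group 4, group 3 is level, and group 10 is at 3.92 CPM in the neural-tube-like clusters.

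Differentiation genes of the paraxial mesoderm were low. The rule leaves out barcodes with TBX6, so levels of presomitic genes are not independent of the rule and are given as description. Of 20 presomitic and somite genes 15 were measured, 10 were 2-fold or more lower and 1 was higher, with a median log2 ratio of -1.36. MEOX1 had 6.19 CPM against 36.1 CPM, FOXC2 9.29 against 47.9 CPM, TWIST1 10.8 against 36.4 CPM and TCF15 5.68 against 14.4 CPM, all factors of somites or their mesenchyme. The exception was HES7, a segmentation clock repressor, with 129 CPM (113 to 146) in double-positive barcodes and 20.7 CPM in the others, 6.22-fold higher (5.44 to 7.09). HES7 had 240 CPM in T-only and 224 CPM in TBX6 barcodes. Without the exclusion of TBX6 and SHH the log2 ratio of HES7 was 3.454, against 2.637 with it. The clock ligand DLL1 had 21.2 CPM against 34.1 CPM, below 2-fold. MSGN1, a driver of presomitic fate in the mouse, was below the measured level, with 0 UMIs in double-positive barcodes and 12 in the others. With so few UMIs in the whole library, MSGN1 says nothing about the double-positive barcodes.

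Neural tube genes as a list were close to the rest. Of 28, 15 were measured, and CDH2 was higher and IRX3 lower, with a median log2 ratio of 0.42. CDH2, the cadherin of neural and mesodermal epithelia, had 321 CPM (296 to 347) against 146 CPM, and the patterning factor IRX3 had 16.0 CPM (10.9 to 22.7) against 36.3 CPM. PAX6 had 43.4 CPM (34.6 to 53.7) against 32.4 CPM, but its 84 UMIs came from 23 barcodes, 14 of which lay in neural-tube-like clusters. SOX3 and HES5, which accompany SOX2 in the neural plate of other species, were below the measured level, with 0 UMIs in double-positive barcodes and 6 and 7 in the others. Counts this low in the whole library, neural-tube-like clusters included, say nothing about the double-positive barcodes.

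Epithelial and matrix genes were mixed. The epithelial adhesion gene EPCAM had 294 CPM against 142 CPM and fibronectin FN1 503 CPM against 193 CPM, with CLDN7, CRB3 and CDH2 also higher, whereas the mesenchyme-associated genes SNAI1, SNAI2, TWIST1, CDH11, COL1A1 and COL3A1 were lower. Much of the EPCAM and FN1 signal came from the double-positive barcodes of the gut-endoderm-like cluster, whose levels are given below. The ratios of EPCAM and FN1 are therefore not traits of the whole group. COL3A1 had 71.7 CPM (60.3 to 84.7) against 432 CPM, 6.02-fold lower (5.09 to 7.16). Among BMP, NODAL and TGF-beta genes 2 of 16 measured were higher, BMP7 and GDF11, and 7 were lower, among them BMP4 with 15.5 CPM against 54.2 CPM.

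The genes named by size on the low side included FGB, RBP4, AFP, AHSG, SPINK1 and the apolipoproteins, which are known from liver and yolk sac, blood genes and LHX1. FGB, a fibrinogen chain, had 1 UMI in double-positive barcodes (0.516 CPM) and 117 CPM in the others, 227-fold lower with a counting interval of 40.7 to 8956. RBP4 had 1.03 CPM against 68.2 CPM, AFP 4.65 against 111 CPM, AHSG 0.516 against 33.7 CPM, SPINK1 2.58 against 49.5 CPM and APOA1 10.3 against 146 CPM. Shares of barcodes differed less for some of them. APOA1 was found in 12.6% of double-positive barcodes and 9.86% of the others, AFP in 5.93% and 6.78%, and SPINK1 in 3.70% and 4.46%. FGB (0.741% and 5.88%), RBP4 (1.48% and 3.04%) and AHSG (0.741% and 1.77%) were found in smaller shares of double-positive barcodes. APOB and APOC3, both apolipoproteins, had 0 UMIs, and taken at the limit of 3 counts over the group (1.55 CPM) were at least 13.1-fold and 9.37-fold lower. Of the erythroid genes, all 6 measured were lower: ALAS2, which starts heme synthesis in red cells, had 0 UMIs and was at least 10.8-fold lower at the same limit, AHSP had 1.03 CPM against 33.8 CPM, and HBZ had 54.7 CPM against 2378 CPM. HBZ was still found in 50.4% of double-positive barcodes and 43.1% of the others, although erythroid-like barcodes were 1.03% of the library. LHX1, a factor of intermediate mesoderm, had 1 UMI (0.516 CPM) against 22.9 CPM, and all 6 measured genes of lateral and intermediate mesoderm were lower, HAND1 with 25.3 against 145 CPM. These low values rest on few UMIs: when barcodes were thinned to 3500 UMIs before the rule, 43 barcodes with 150500 UMIs remained, where 11 of the 12 low genes named by size had 0 UMIs and 3 counts are worth 19.9 CPM. LHX1 (20.7 CPM in the others) and RBP4 (36.3 CPM) were then no longer 2-fold lower at that limit, and for 6 more, AHSG, AHSP, ALAS2, APOB and APOC3 among them, the other barcodes were themselves below it. Of 6 measured endothelial genes 5 were lower, and of 6 gut endoderm genes 4. Neural crest genes had 2 of 6 lower and the 1 measured macrophage gene was within 2-fold. Notochord genes had 1 higher, FOXA2, and 2 lower of 8, surface ectoderm genes 1 higher, EPCAM, and 1 lower of 8, and the 1 measured primitive streak gene, APLNR, was lower, with 10.3 against 48.6 CPM. FOXA2 was found in 16 double-positive barcodes, 9 of them in the gut-endoderm-like cluster.

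**Figure D4:**
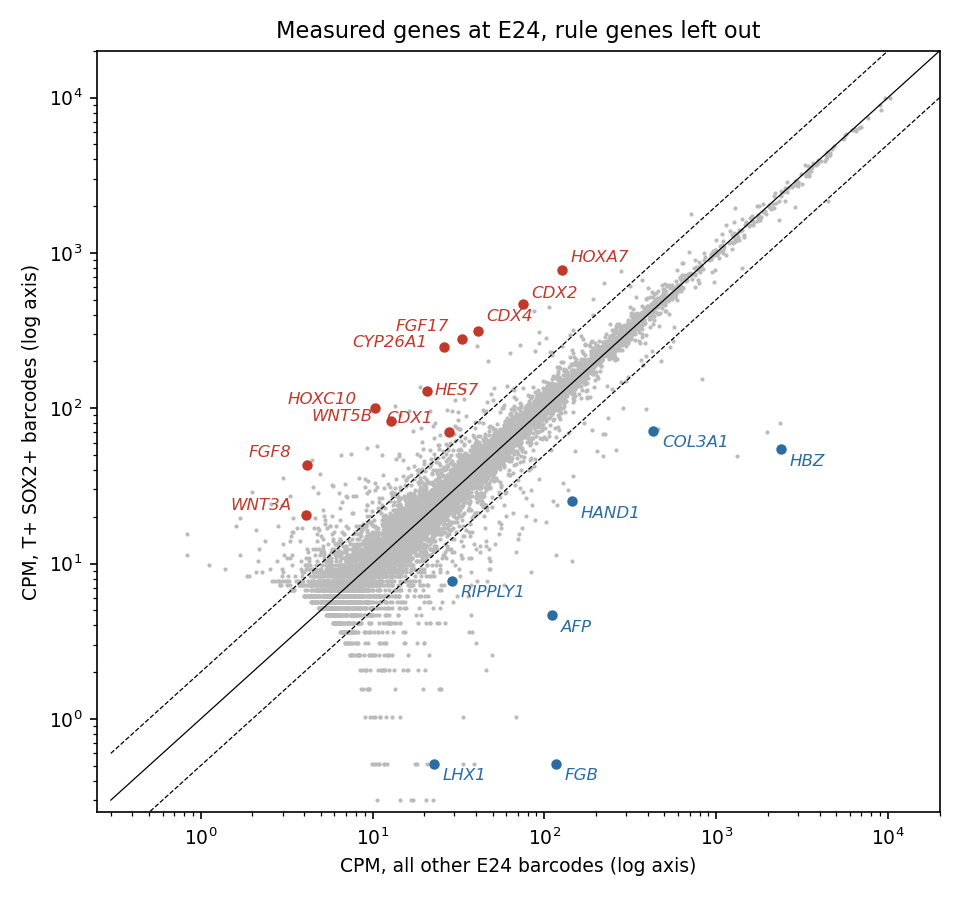
Each point is 1 measured gene, with its CPM in other E24 barcodes on the horizontal and in T and SOX2 double-positive barcodes on the vertical log axis, with the 4 rule genes left out. The solid line is equality, the dashed lines are 2-fold, and genes with 0 UMIs are drawn at the bottom edge. CDX2, CDX4, FGF8, FGF17, CYP26A1, HOXC10 and HOXA7 lie above the band and AFP, FGB, LHX1 and HBZ below it.

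Cell cycle genes did not differ by 2-fold. None of 18 S phase genes and none of 18 G2 and M phase genes passed it, with median log2 ratios of 0.07 and 0.33. The pluripotency factors POU5F1 and NANOG had 1 and 0 UMIs in double-positive barcodes, and of 7 measured genes of that list LIN28A and SALL4 were higher and ZFP42 lower. Of 11 measured dissociation stress genes 4 were lower (FOS, EGR1, ATF3 and ZFP36), FOS with 15.5 CPM against 71.0 CPM and EGR1 with 5.16 against 24.7 CPM, and the median log2 ratio was -0.55. NOTCH genes other than HES7 had DLL3 and HEY2 lower among 12 measured.

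Outside these lists, 4 genes were among the 12 higher genes named by size. IGSF21, an immunoglobulin family protein of synapses, had 28.9 CPM (21.8 to 37.5) in double-positive barcodes and 1.99 CPM in the others, 14.5-fold higher (10.6 to 19.5). Thinned before the rule, IGSF21 kept 1 UMI in double-positive barcodes and was 2.90-fold higher (0.0726 to 16.6). APELA, a peptide ligand of the APLNR receptor, had 102.7 CPM against 13.4 CPM, 7.65-fold higher (6.56 to 8.87). PPP1R14C, a phosphatase inhibitor, had 138 CPM against 19.0 CPM, 7.26-fold higher (6.37 to 8.25), and RELL1 37.7 CPM against 4.93 CPM, 7.64-fold higher (5.90 to 9.77). In T-only barcodes IGSF21 had 6.26 CPM, APELA 41.5 CPM and RELL1 21.6 CPM, while PPP1R14C, at 137 CPM, was level with double-positive barcodes.

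The double-positive barcodes were not uniform. In cluster 14, all 78 held a CDX gene, 92.3% held CDX2 and CDX4 jointly, 83.3% held FGF17 and 20 of 78 held WNT3A. Their levels were close to those of the 459 barcodes of the same cluster that the rule did not pick. CDX2 had 645 CPM in the 78 and 534 CPM in the 459, a ratio of 1.21 (1.11 to 1.32). CDX4 had 433 against 372 CPM, a ratio of 1.16 (1.04 to 1.29), and WNT3A 34.5 against 28.6 CPM, a ratio of 1.21 (0.805 to 1.76). FGF8 (72.0 against 41.0 CPM, 1.76, 1.32 to 2.31), WNT5B (117 against 69.9 CPM, 1.67, 1.34 to 2.06) and HOXC10 (153 against 93.0 CPM, 1.65, 1.36 to 1.98) differed more, and HES3 was lower (28.4 against 59.3 CPM, 0.479, 0.313 to 0.706). The median depth was 12317 UMIs in the 78 and 10452 UMIs in the 459, and its part in these differences was not tested.

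At a finer clustering (resolution 2, against 1 above), 77 of the 78 double-positive barcodes of cluster 14 fell into 2 parts. These parts were formed on the genes compared here, except for the 4 rule genes, so the values describe them and test nothing. The FGF17-led part held 177 barcodes, 39 of them double-positive, with T in 75.7% and SOX2 in 49.2%. The SOX2-led part held 357 barcodes, 38 of them double-positive, with T in 12.3% and SOX2 in 93.6%. WNT3A lay mainly in the first: it had 63.3 CPM (41.7 to 92.0) in the 39 double-positive barcodes of the FGF17-led part and 7.48 CPM (2.04 to 19.2) in the 38 of the SOX2-led part, and over all barcodes of each part was found in 48.6% and 3.64%. CDX2 and CDX4 divided less, with 726 and 457 CPM in the FGF17-led and 604 and 428 CPM in the SOX2-led double-positive barcodes, ratios of 1.20 (1.02 to 1.41) and 1.07 (0.876 to 1.30). Over all barcodes of the FGF17-led and SOX2-led parts, CDX2 had 628 and 526 CPM and CDX4 508 and 329 CPM. CDX1 had 171 and 64.4 CPM over all barcodes of these parts, and was found in 74.6% and 45.9%.

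Other caudal genes went with one part or the other. In double-positive barcodes of the FGF17-led part, HES7 had 351 CPM against 89.8 CPM in the SOX2-led part, CYP26A1 520 against 180 CPM, FGF8 117 against 35.5 CPM, FGF17 677 against 245 CPM and WNT5B 180 against 65.5 CPM. NKX1-2 ran the other way, with 16.4 CPM (6.59 to 33.8) in the FGF17-led and 54.3 CPM (36.3 to 77.9) in the SOX2-led part, as did HES3 with 14.1 against 41.2 CPM and the homeobox gene GBX2 with 14.1 against 76.7 CPM. Barcodes the rule did not pick were more sharply divided. WNT3A had 93.1 CPM in the 138 of the FGF17-led part and 4.10 CPM in the 319 of the SOX2-led part, and FGF17 had 998 and 77.9 CPM. For FGF17, HES7, CYP26A1 and WNT5B the double-positive barcodes of each part lay between the unpicked barcodes of both parts.

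**Figure D5:**
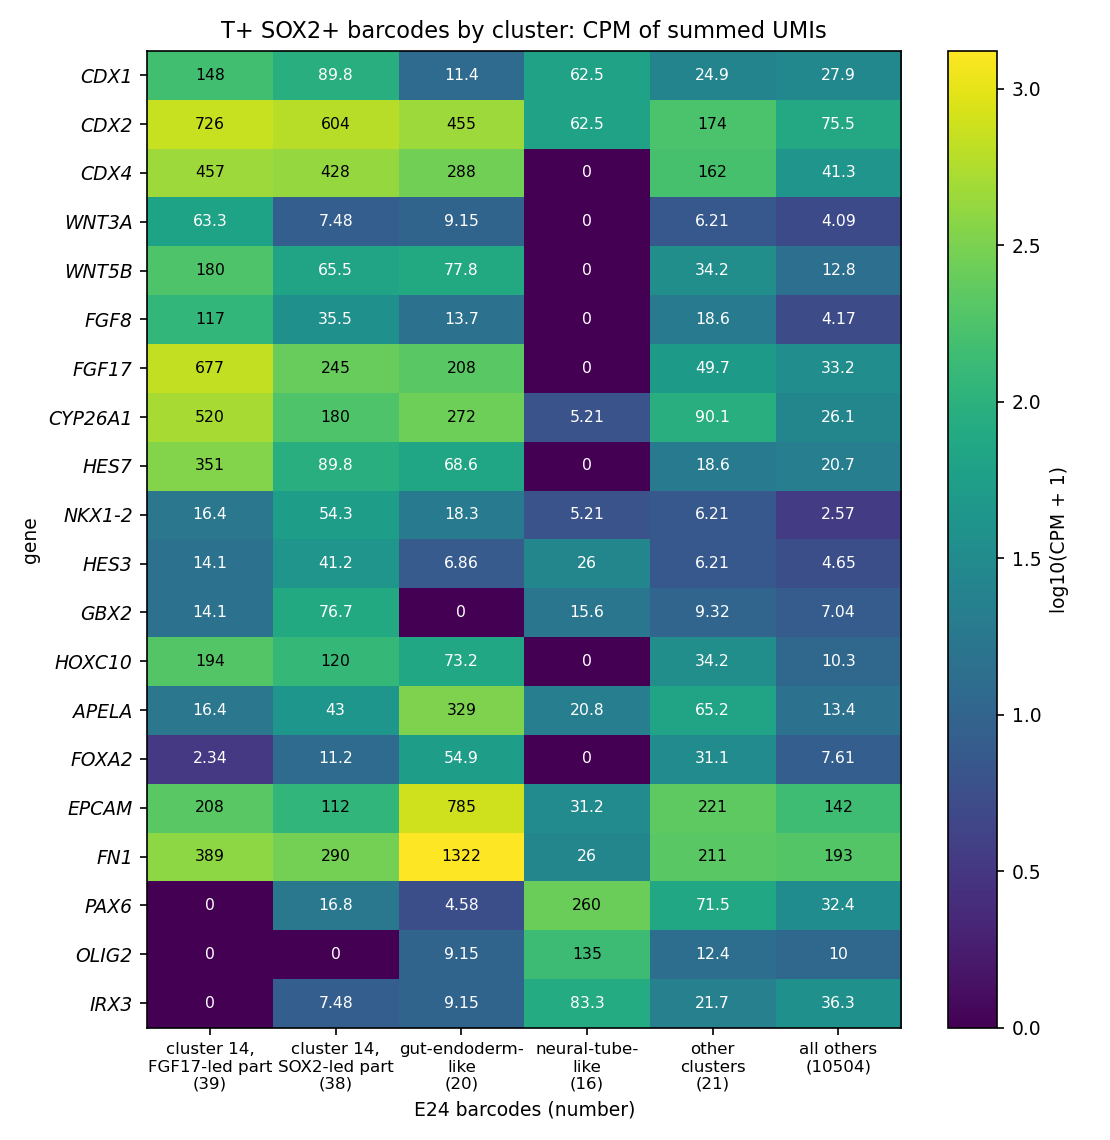
CPM of 20 genes in T and SOX2 double-positive barcodes by cluster (numbers of barcodes in brackets) and, at the right, in all other E24 barcodes; colour is log10(CPM + 1) and the printed value is the CPM. WNT3A is highest in the FGF17-led part of cluster 14, NKX1-2 in its SOX2-led part, APELA, EPCAM and FN1 in gut-endoderm-like and PAX6 in neural-tube-like barcodes.

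The 20 double-positive barcodes in the gut-endoderm-like cluster held caudal genes together with high levels of the epithelial gene EPCAM. CDX2 and CDX4 were found jointly in 17 of 20, FGF17 in 17, HOXA10 in 20 and WNT3A in 2. EPCAM had 785 CPM and FN1 1322 CPM in them, against 208 and 389 CPM in the FGF17-led double-positive barcodes. FOXA2, an endodermal forkhead factor, was found in 9 of 20 at 54.9 CPM (35.2 to 81.7). APELA had 329 CPM (278 to 388), against 30.4 CPM in the 78 of cluster 14, so most of the APELA signal of the whole group, 144 of 199 UMIs, came from these barcodes. FGB had 1 UMI in them and 1586 CPM in the 416 other barcodes of the cluster. At the finer clustering all 20 lay in a part of 187 barcodes led by KYNU, AGR3 and HOXA10, where T was found in 23.0% and SOX2 in 36.9%, CDX2 in 81.3% and CDX4 in 52.9%. Their median depth was 16780.5 UMIs, the highest of the subgroups.

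The 16 double-positive barcodes in neural-tube-like clusters lacked most caudal genes. CDX4, WNT3A, FGF8, FGF17, HES7 and HOXA10 had 0 UMIs among 192110, which allows up to 15.6 CPM for each. PAX6 was found in 14 of 16, at 260 CPM (193 to 343), against 271 CPM in the 1198 other barcodes of these clusters, a ratio of 0.960 (0.711 to 1.27). CDX1 had 62.5 CPM against 51.0 CPM, and CDX2, at 12 UMIs in 6 barcodes, 62.5 CPM (32.3 to 109) against 21.4 CPM. All 16 had a single T UMI. The remaining 21 barcodes held CDX2 and CDX4 jointly in 7, FGF17 in 5 and WNT3A in 2. With the 78 of cluster 14 alone set against the other barcodes, the log2 ratios were 2.03 for CDX1, 3.09 for CDX2, 3.39 for CDX4 and 3.08 for WNT3A, an alternative chosen after the data were seen.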

How the data were processed

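Per the labels' protocols, embryo fragments were dissociated and sequenced with a droplet 3′ kit, which the labels call v2 chemistry in one place and v3 in another. Cell Ranger 2.1.0 is named in the submitters' processing notes, and the authors' genome build was not stated in the labels or files used. The deposited values were raw UMI counts per gene and barcode, made by the authors and not normalized. The tables held 26223 gene rows, and 1 row with no name took 0% of UMIs. Rows named only by an NCBI gene number (9499) were looked up in RefSeq annotation of T2T-MFA8v1.1, where 3867 were found and 673 gained a symbol, CYP26A1 among them.

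All barcodes were kept. UMIs were summed over double-positive and over other barcodes and scaled to CPM. Ratios carry exact conditional binomial 95% intervals, levels exact Poisson and shares exact binomial (Clopper-Pearson) intervals, and a count of 0 was taken as 3 counts over the group. A gene counted as measured at a mean of 5 CPM over both groups and was called at 2-fold. Named genes were the CDX genes, WNT3A, members of the 25 lists, and in each direction the 12 genes whose ratio interval lay farthest from 1, with at least 50 UMIs in the higher group, leaving out rule, ribosomal and globin genes and rows named only by gene number (so neither HBZ nor CYP26A1), of which 1 is not reported here. The members and lists were chosen with earlier results of these data known. Clustering used scanpy 1.11.5 in Python 3.11.15 with 2000 variable genes, 30 components, 15 neighbours and Leiden resolution 1, and intervals used scipy 1.17.1. Cluster names come from listed markers. Scrublet's own threshold called 0 barcodes, so no doublets were removed, and an alternative removed 906 by score. The ratio intervals were tested on simulated data. With 1 library per age there were no replicates, p-values or tests. Alternatives changed the UMI minimum, the exclusion, depth, doublets, scaling, filters and clustering.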

Additional observations from a re-analysis of the deposited data

How the results depend on the processing

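None of the CDX1, CDX2, CDX4 and WNT3A ratios changed sign under any alternative run. Requiring 2 or more UMIs of T and of SOX2 left 27 double-positive barcodes, of which 81.48% lay in the leading cluster, with 665 genes higher and 834 lower, and log2 ratios of 2.923 for CDX2 and 3.409 for CDX4. Without the exclusion of TBX6 and SHH there were 173 barcodes, and the log2 ratios were 1.696 for CDX1 and 2.931 for WNT3A. HES7 then moved from 2.637 to 3.454, FGF17 from 3.066 to 3.743 and CYP26A1 from 3.256 to 3.729. They were among 7 named genes that moved beyond their interval, while 20 did not. Thinning before the rule left 43 barcodes, with 1023 genes higher and 839 lower, and log2 ratios of 1.669 for CDX1, 2.496 for CDX2, 2.619 for CDX4 and 2.936 for WNT3A. Removing doublets by score gave 2.796 for CDX2. A mean of at least 20 CPM gave 132 genes higher and 113 lower, and no filter gave 1538 and 1185. At resolution 2 the leading cluster held 28.89%. Keeping the 78 barcodes of the leading cluster, chosen after the data were seen, gave 778 genes lower and log2 ratios of 2.027 for CDX1, 3.094 for CDX2, 3.39 for CDX4 and 3.075 for WNT3A. Of 210 values of 27 named genes under 8 alternatives, 138 stayed within their counting interval, 72 moved beyond it and 0 changed sign. Thinned before the rule, the log2 ratio fell to 1.536 for IGSF21 and 1.579 for HOXA10, and with 0 UMIs taken as 3 counts was -2.218 for FGB, -1.038 for SPINK1, -0.8645 for RBP4 and -0.05503 for LHX1, of which the last pair lost the 2-fold call. Scaling by the median of ratios shifted all log2 ratios by 0.07. No paired analysis was possible because each age has a single library. The cause of these shifts was not tested, except that filters change which genes count. WNT3A rests on 40 UMIs, and the low genes named by size on 0 to 20.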

Other observations

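The following genes were picked after their values were seen and stand for no group. RXFP3, a relaxin-3 receptor, had 15.5 CPM in double-positive barcodes and 0.838 CPM in the others, 18.5-fold higher (11.8 to 28.1). KISS1, a peptide hormone precursor, had 71.2 CPM against 17.3 CPM, GAD1, which makes the transmitter GABA, 31.0 CPM against 4.49 CPM, and HDC, which makes histamine, 16.5 CPM against 2.09 CPM. HCRT, the hypocretin precursor, had 51.1 CPM against 7.52 CPM, and it is also a leading gene of the unnamed cluster that held 7 of the double-positive barcodes.

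In cluster 14, T was found in 101 of 424 barcodes with SOX2 (23.8%) and in 78 of 113 without it (69.0%). In the gut-endoderm-like cluster the order was the other way, with T in 24 of 116 barcodes with SOX2 (20.7%) and 24 of 320 without it (7.5%). These shares describe the genes of the rule and were not tested. PTK7, a cell polarity receptor, had 257 CPM in double-positive barcodes and 72.0 CPM in the others, and the cadherin CDH6 98.1 CPM against 27.0 CPM.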
